A study of Mus musculus with 12 samples.

Results

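MAP kinase phosphatases, Sprouty and Spred proteins and the receptor-like protein Il17rd are the negative feedback arm of receptor tyrosine kinase signalling. They were followed in the mouse mammary tumour cell line MMT after siRNA to the PEA3 group transcription factors Pea3 (Etv4) or Erm (Etv5). The 10 genes looked for were Dusp4, Dusp5, Dusp6, Dusp9, Spry1, Spry2, Spry4, Spred1, Spred2 and Il17rd, of 13840 genes that the array annotation gives a probe of a single symbol. Of these, 9 had such a probe, 1 each, and Dusp5 had none. Probes of 7 were bright enough to be tested, among 8864 genes tested in all, and those of Spry1 and Il17rd were too dim.

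Total RNA was measured on 12 single-colour chemiluminescent arrays. Of these, 4 came from cells given siRNA to Pea3 (siPea3), 3 from cells given siRNA to Erm (siErm), 3 from cells given a control siRNA (siCtrl) and 2 from untransfected cells. All 12 samples came from the same line, the labels call the replicates biological, and they give neither the siRNA sequences nor the time of harvest. Because RNA came from whole cultures, fewer cells that express a gene and less RNA per cell cannot be told apart.

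Growth factor receptors activate RAS, which drives a kinase cascade that ends in ERK, and ERK enters the nucleus and switches on transcription. Among the genes it switches on are its own inhibitors: dual-specificity phosphatases remove the activating phosphates from MAP kinases, and Sprouty and Spred proteins act higher up, between the receptor and RAF. PEA3 group factors are ETS proteins that respond to the same pathway, and in embryos they are expressed where FGF signalling is active, often together with Dusp6, Spry2 and Spry4.

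Signals are the deposited assay normalized signals on a linear scale, and the signal of one probe cannot be set against that of another. Detection meant a signal of at least 3 times its noise, and the 16724 probes detected on 2 or more arrays, with values in every group, were tested. The test was a limma fit over all 12 arrays, p-values were adjusted over all tested probes by the Benjamini-Hochberg method, and an adjusted p under 0.05 counted as passing. The 95% intervals of log2 differences are for single probes and are not adjusted. Array 2 of siPea3 was the dimmest, with 34.2% of probes detected against 38.2% to 41.9% on the other 11 arrays. Array 3 of siCtrl had the lowest signal to noise for Dusp6, 4.76 against 12.5 to 25 on the others. It also had the lowest siCtrl signals of Dusp4, Dusp6 and Spry2. The keratins Krt8, Krt18 and Krt14 were detected on all arrays. Krt5, Epcam, Cdh1 and Cldn7 were detected on none, so that 4 of 7 epithelial markers listed for the labelled tissue were not seen. Of 7 mesenchymal markers, Vim, Cdh2 and Fn1 were detected on all arrays and the others were not. Thy1 was detected on no siPea3, siErm or untransfected array, and Col1a1 on no siErm array. The leukocyte markers Ptprc, Cd3e and Adgre1 were detected on no array.

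The targeted gene Etv4 had signals of 21.1, 20.6, 18.1 and 16.4 in siPea3 cells, 26.7, 45.7 and 32.4 in siErm cells, 36.0, 43.1 and 31.5 in siCtrl cells, and 40.7 and 41.8 in untransfected cells. All 4 siPea3 arrays lay below every other array. The log2 difference of siPea3 from siCtrl was -0.95 (SE 0.24, adjusted p = 0.195, limma), which did not pass the test. Etv5 was detected on 0 of 4 siPea3 arrays (0.59 to 0.80), 0 of 3 siErm arrays (0.51 to 1.77), 2 of 3 siCtrl arrays (0.99 to 2.77) and 1 of 2 untransfected arrays (23.7, and 1.05 not detected), so its knockdown by siErm could not be checked at this signal over background. The siPea3 arrays lay below all siCtrl arrays for Etv5 as well. The third PEA3 group gene, Etv1, had signals of 12.6, 1.32, 5.23 and 1.74 in siPea3 cells (detected on 2 of 4 arrays), 7.74, 10.4 and 3.74 in siErm cells, 13.2, 14.7 and 6.36 in siCtrl cells, and 10.1 and 10.3 in untransfected cells. Its siPea3 and siCtrl arrays overlapped, and the log2 difference was -1.61 (SE 0.70, adjusted p = 0.356).

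Knockdown of Pea3 was compared with the control siRNA to ask how the feedback genes stood when Etv4 signal was lower. The phosphatases Dusp9, Dusp6 and Dusp4 and the Sprouty gene Spry2 were lower on all 4 siPea3 arrays than on any siCtrl array. Dusp9 was lower by 5.67-fold and the other genes by 1.83-fold to 2.23-fold. The Dusp9 fold rests on dim siPea3 signals of 1.63 to 5.44, not detected on array 2. With 4 added before log2 its log2 difference was -1.53 in place of -2.50. No member passed the test over all probes (0 of 7, background 0.0359%, or 6 of 16724 probes, and 0 probes with the replicate number as a block). Without overlap between the groups, 4 of 7 members were lower, against 12.4% of all tested probes, and 0 of 7 were higher, against 2.84%. These counts used signals as deposited. The upper quartile signal over all probes was 7.47 to 10.92 on siPea3 arrays and 10.93 to 12.49 on siCtrl arrays. The part of this difference between arrays in the counts was not tested. Without adjustment, 4 of 7 had a p under 0.05 and were lower, against 10.6% of probes. Estimates were below 0 for 7 of 7 members, with Spry4 above 0 under the 2 scalings given with its values, and for 69.4% of probes. The median log2 difference of the 7 members was -0.95, and that of all tested probes was -0.24.

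Dusp9 encodes a cytoplasmic phosphatase with a preference for ERK. Its signals were 5.44, 1.63, 3.12 and 2.40 in siPea3 cells, 13.7, 24.3 and 17.4 in siErm cells, 12.9, 24.4 and 13.4 in siCtrl cells, and 49.98 and 28.6 in untransfected cells. The siPea3 arrays were all below the other 8, and on array 2 of siPea3 the probe was not detected. The group means were 3.15 ± 1.65 (SD, n = 4) in siPea3 cells and 16.9 ± 6.49 (SD, n = 3) in siCtrl cells. The log2 difference was -2.50 (SE 0.42, 95% interval -3.43 to -1.57, adjusted p = 0.0840, limma), and by unadjusted p it ranked 18 of 16724 probes. It passed under 4 of 17 alternative settings, with adjusted p between 0.0290 and 0.277 over all 17.

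Dusp6 encodes another cytoplasmic phosphatase that is highly selective for ERK and a widely used readout of FGF and ERK signalling. Its signals were 142, 88.8, 118 and 84.8 in siPea3 cells, 173, 281 and 129 in siErm cells, 234, 332 and 169.6 in siCtrl cells, and 614 and 239 in untransfected cells. The siPea3 arrays did not overlap siCtrl or untransfected arrays, but the highest siPea3 array exceeded the lowest siErm array. Between siPea3 and siCtrl the log2 difference was -1.16 (SE 0.40, 95% interval -2.03 to -0.28, adjusted p = 0.288).

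Dusp4 encodes a nuclear phosphatase that is induced by ERK. Its signals were 17.4, 13.5, 12.7 and 12.4 in siPea3 cells, 17.2, 26.6 and 17.3 in siErm cells, 26.3, 35.8 and 20.6 in siCtrl cells, and 20.7 and 15.5 in untransfected cells. The siPea3 arrays lay below all siCtrl arrays, but the highest of them exceeded the lowest siErm array and the lower untransfected array. The log2 difference of siPea3 from siCtrl was -0.95 (SE 0.28, 95% interval -1.56 to -0.35, adjusted p = 0.239).

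Spry2 encodes a Sprouty protein, an inhibitor of growth factor signalling that is itself phosphorylated on receptor activation. Its signals were 18.7, 13.1, 18.3 and 14.1 in siPea3 cells, 24.4, 29.7 and 19.2 in siErm cells, 26.6, 37.3 and 24.6 in siCtrl cells, and 78.0 and 41.5 in untransfected cells. The siPea3 arrays were below all other arrays, although the highest of them was close to the lowest siErm array. The log2 difference of siPea3 from siCtrl was -0.87 (SE 0.29, 95% interval -1.52 to -0.23, adjusted p = 0.277).

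Dusp6 and Spry2 followed each other closely over the 12 arrays. After each probe was centred on its own mean, the Spry2 probe differed from the Dusp6 probe by a root mean square of 0.22 on the log2 scale, the smallest among 9040 tested probes of other genes. The next were Wasf1 at 0.25, Snx24 at 0.25, Tars at 0.26 and Ywhag at 0.26. The arrays share their scaling, and this nearness is a description with no test. The 5 probes nearest to Dusp9 were Tmcc3 at 0.62, Slc22a21 at 0.63, P2ry12 at 0.67, Eps8 at 0.68 and Hmgb3 at 0.69, with Dusp6 at rank 48 and Spry2 at rank 107.

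The promoters of this closely matched pair are shown, with matches to AGGAAG or CCGGAA, forms of the ETS binding site, in capitals. The sequences are from RefSeq, build GRCm38.p6, 5′ to 3′ on the strand of the gene, from 250 bases before the annotated start to 50 after it, at chr10:99262981-99263280 (+) for Dusp6 and chr14:105896770-105897069 (−) for Spry2.
Dusp6: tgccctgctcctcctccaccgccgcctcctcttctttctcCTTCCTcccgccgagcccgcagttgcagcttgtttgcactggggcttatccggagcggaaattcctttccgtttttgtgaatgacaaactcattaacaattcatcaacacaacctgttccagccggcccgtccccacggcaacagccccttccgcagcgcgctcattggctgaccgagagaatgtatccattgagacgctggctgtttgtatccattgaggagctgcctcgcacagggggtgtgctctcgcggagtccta
Spry2: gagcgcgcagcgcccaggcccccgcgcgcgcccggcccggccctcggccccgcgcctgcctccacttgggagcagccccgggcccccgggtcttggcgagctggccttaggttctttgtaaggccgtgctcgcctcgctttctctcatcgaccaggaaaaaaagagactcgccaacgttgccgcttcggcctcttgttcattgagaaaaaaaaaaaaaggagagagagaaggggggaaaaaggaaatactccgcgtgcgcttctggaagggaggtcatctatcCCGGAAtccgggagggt
The Dusp6 match is AGGAAG on the other strand, printed as its reverse complement, beginning at position -210 from the start, and the Spry2 match is CCGGAA at position 34. Both strands were searched for these forms only, and no match overlapped another. Other stretches with GGAA or its reverse complement TTCC, present in both printed sequences, were not searched for and stay in lower case. The table held promoters for 7 of the 10 genes. AGGAAG was in 3 of these (Dusp6, Spred2 and Dusp5), against 35.4% of 32851 promoters, and CCGGAA in 1, against 14.9%. Either motif was in 4 of 7, against 45.2% of all promoters, a share near the background. Dusp4, Dusp9 and Spry4 had no entry.

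**Figure D1:**
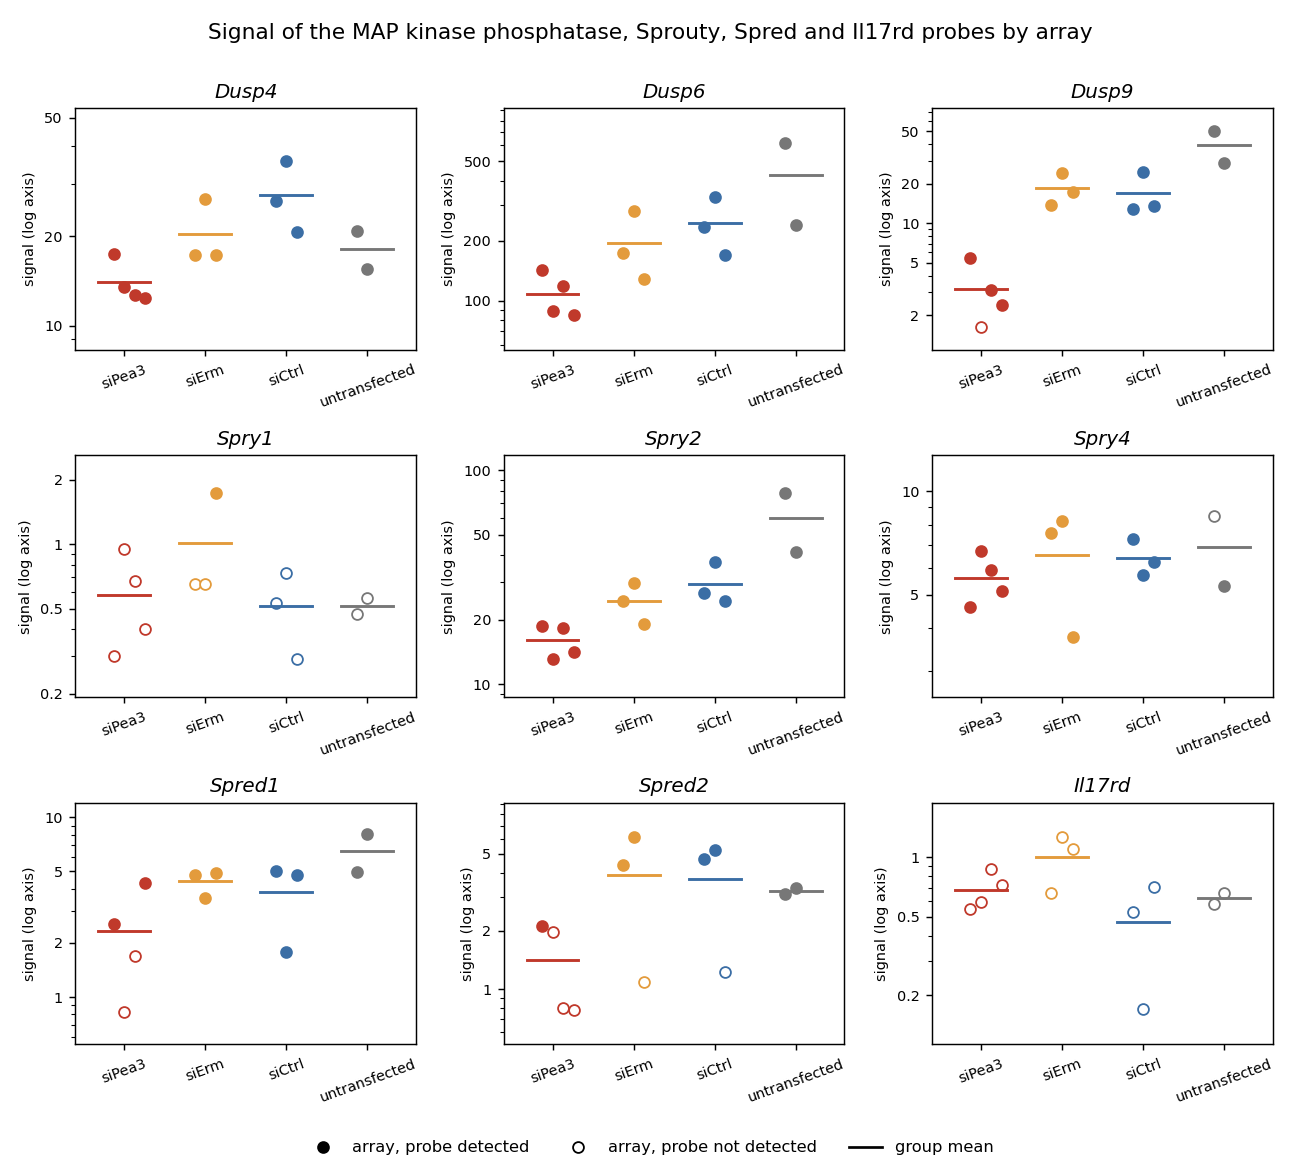
Signal of the 9 feedback gene probes (vertical log axis, assay normalized signal) on each array of the 4 groups (horizontal axis); filled points are arrays on which the probe was detected, open points those on which it was not, and bars are group means. The siPea3 points of Dusp9 (1.63 to 5.44) and Spry2 (13.1 to 18.7) lie below all other points of their panels.

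The remaining Sprouty and Spred genes were dimmer. Spry4, another Sprouty gene, had signals of 4.6, 6.71, 5.91 and 5.12 in siPea3 cells, 7.57, 8.21 and 3.78 in siErm cells, 7.25, 5.72 and 6.24 in siCtrl cells, and 8.49 (not detected) and 5.30 in untransfected cells. All 4 groups overlapped. The log2 difference of siPea3 from siCtrl was -0.21 (SE 0.31, 95% interval -0.89 to 0.48, adjusted p = 0.789), and its sign turned under quantile normalization (0.02) and scaling over probes detected on all arrays (0.11).

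Spred1 and Spred2 encode membrane proteins that restrain RAS activation, Spred1 by bringing neurofibromin to the membrane. Spred1 signals were 2.55, 0.82, 1.70 and 4.30 in siPea3 cells (detected on 2 arrays), 4.79, 3.55 and 4.91 in siErm cells, 5.05, 1.77 and 4.77 in siCtrl cells, and 4.98 and 8.07 in untransfected cells. Spred2 signals were 2.13, 1.98, 0.80 and 0.78 in siPea3 cells (detected on 1 array), 4.40, 6.14 and 1.09 in siErm cells (2 arrays), 4.73, 5.22 and 1.23 in siCtrl cells (2 arrays), and 3.12 and 3.32 in untransfected cells. For both genes siPea3 and siCtrl arrays overlapped. The log2 differences of siPea3 from siCtrl were -0.82 for Spred1 (SE 0.54, 95% interval -2.004 to 0.36, adjusted p = 0.501) and -1.29 for Spred2 (SE 0.68, 95% interval -2.79 to 0.20, adjusted p = 0.419). Spred1 was -0.40 without siPea3 array 2, -1.31 without siCtrl array 2 and -0.31 with 4 added before log2, and Spred2 was -1.96 without siCtrl array 3 and -0.48 with 4 added.

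Spry1 was detected on 1 of 12 arrays, siErm array 3, at a signal of 1.73, and its other signals were 0.29 to 0.95. Il17rd, which encodes a membrane inhibitor of FGF signalling also called Sef, was detected on no array, with signals of 0.17 to 1.26. At this signal over background no difference in either gene was detectable.

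Array 1 had the highest signal of the siPea3 group for Dusp4, Dusp6, Dusp9 and Spry2, and array 2 the highest of both the siErm and the siCtrl group for the same 4 genes. Within the 3 shared numbers, siPea3 was lower than siCtrl every time for Dusp4, Dusp6, Dusp9, Spry2, Spred1 and Spred2, that is for 6 of 7 tested members, against 29.3% of the probes measured on all of these arrays. Spred1 and Spred2 were not detected on siPea3 arrays 2 and 3, nor Dusp9 on siPea3 array 2, nor Spred2 on siCtrl array 3, so these pairs rest on signals not above background. The summed signal of the 7 epithelial marker probes was 385 to 706 on siPea3 arrays and 690 to 895 on siErm arrays. It was 773 to 1180 on siCtrl arrays and 1690 to 1795 on untransfected arrays. Only Krt8, Krt18 and Krt14 of these markers were detected on any array. The part of this sum in these results was not tested. The summed signal of the 7 mesenchymal marker probes was 3274 to 4832 on siPea3 arrays and 5275 to 5672 on siErm arrays. It was 4683 to 6935 on siCtrl arrays and 8285 to 8541 on untransfected arrays, and its part was not tested either. Such sums are weighted to their brightest probes and do not describe each marker. Of 11 tested interferon response genes, 0 passed in siPea3 against siCtrl, and 3 were lower at an unadjusted p under 0.05, against 10.6% of probes. Lower without overlap were 5 of 11, against 12.4% of probes. The median log2 difference of these genes was -0.28, near the -0.24 of all probes, and their part was not tested.

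**Figure D2:**
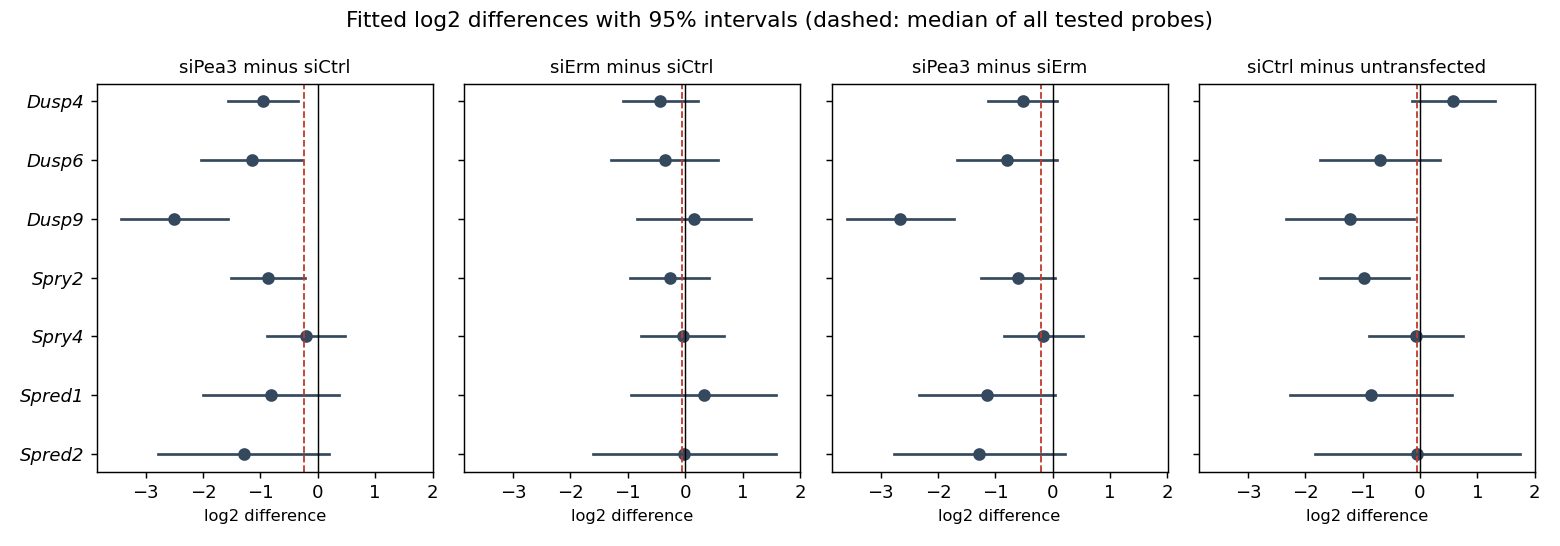
Fitted log2 differences (horizontal axis) of the 7 tested genes (vertical axis) in the 4 comparisons; points are estimates, lines 95% intervals, and the dashed line is the median of all tested probes. In siPea3 minus siCtrl the intervals of Dusp4, Dusp6, Dusp9 and Spry2 lie below 0, and that of Dusp9 (-3.43 to -1.57) lies farthest from it.

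Cells given siRNA to Erm were compared with the same siCtrl arrays, so the siErm and siPea3 comparisons share their controls. Etv5 was detected on 0 of 3 siErm arrays and 2 of 3 siCtrl arrays, so whether Erm was lowered could not be checked. No member passed the test and none had a p under 0.05 before adjustment (0 of 7, where 0 of 16724 probes passed, background 0%, and 0.945% were lower at an unadjusted p under 0.05). No member was lower without overlap, against 2.89% of probes, and none was higher, against 2.57%. Without siErm array 2, Dusp4 and Spry2 were lower without overlap, when 12.2% of all probes were. Spry4 was higher without overlap without siErm array 3, when 7.45% of probes were, and Dusp9 without siCtrl array 2, when 6.55% were. The log2 difference was -0.43 for Dusp4 (95% interval -1.08 to 0.22), -0.36 for Dusp6 (-1.30 to 0.58), -0.27 for Spry2 (-0.96 to 0.42) and 0.15 for Dusp9 (-0.84 to 1.15), all with adjusted p = 1.00. With 1 array left out, the difference ran from -0.64 to -0.22 for Dusp4, from -0.66 to -0.10 for Dusp6 and from -0.42 to -0.087 for Spry2, the ends nearest 0 coming without siCtrl array 2 for Dusp4 and Spry2 and without siErm array 3 for Dusp6. Spry4 (-0.05), Spred1 (0.32) and Spred2 (-0.01) had intervals that reached at least 0.68 on both sides of 0. On arrays of the same number, siErm was lower than siCtrl in all 3 pairs for Dusp4 (0.655 to 0.839 of siCtrl), Dusp6 (0.738 to 0.846) and Spry2 (0.781 to 0.919), that is for 3 of 7 members, against 20.5% of probes.

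Set directly against siErm cells, siPea3 cells had lower signals of Dusp9 and Spry2 on every array. No member passed the test (0 of 7, background 0.00598%, or 1 of 16724 probes), and only Dusp9 had an unadjusted p under 0.05 (1 of 7 lower, against 7.98%). Dusp9 averaged 3.15 ± 1.65 in siPea3 cells (SD, n = 4) and 18.5 ± 5.36 in siErm cells (SD, n = 3), a log2 difference of -2.65 (SE 0.42, 95% interval -3.59 to -1.72, adjusted p = 0.0885, limma). It passed under 2 of 17 alternative settings, with adjusted p from 0.0208 to 0.387 over all 17. Lower without overlap were 2 of 7 members, against 10.9% of probes, and 0 were higher, against 2.73%. The count of lower members was 4 without siPea3 array 1, when 19.5% of probes were lower, and 5 without siErm array 3, when 23.3% were. The log2 differences of the others were -0.80 for Dusp6 (95% interval -1.67 to 0.08), -0.60 for Spry2 (-1.25 to 0.04), -0.52 for Dusp4 (-1.13 to 0.08), -1.14 for Spred1 (-2.33 to 0.04), -1.28 for Spred2 (-2.77 to 0.22) and -0.16 for Spry4 (-0.84 to 0.52). Without siErm array 2 they were -0.49 for Dusp6, -0.31 for Dusp4 and -0.78 for Spred2, without siErm array 3 Spred2 was -2.03, and without siPea3 array 2 Spred1 was -0.72.

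The siCtrl arrays were compared with untransfected cells to see what transfection itself did to the feedback genes. Dusp9 and Spry2 were lower on all 3 siCtrl arrays than on both untransfected arrays, while Dusp4 was higher on average. No member passed the test (0 of 7, background 1.02%, or 171 of 16724 probes), and 2 of 7 were lower at an unadjusted p under 0.05, against 5.13%. Lower without overlap were 2 of 7, against 14.2% of probes, and 0 of 7 were higher, against 12.6%. Without untransfected array 2 the lower count was 4, when 37.8% of probes were lower. The higher count was 2 without siCtrl array 3 (Dusp4 and Spred2, when 23.3% of probes were higher) and 2 without untransfected array 1 (Dusp4 and Spry4, when 27.9% were). In the same comparison estimates were above 0 for 10 of 11 tested interferon response genes, and 9 were higher without overlap, against 12.6% of probes. The median log2 difference of that list was 1.90, against -0.06 for all probes. The test was passed by 5 of these genes, all higher, against 0.903% of probes. That count was 1 without untransfected array 1 and 3 without untransfected array 2 or siCtrl array 3. The part of that response in the values of the feedback genes was not tested. Of 5 tested FGF ligands and receptors 0 passed, with a median log2 difference of -1.95. At an unadjusted p under 0.05, 2 were lower, against 5.13% of probes, and 1 was higher, against 6.27%. Of 19 tested genes that ERK is known to induce 0 passed, with a median of -0.16. Without overlap 1 was lower and 3 were higher, against 14.2% and 12.6% of probes. The part of these lists was not tested either.

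Spry2 averaged 29.5 ± 6.85 in siCtrl cells (SD, n = 3) and 59.8 ± 25.9 in untransfected cells (SD, n = 2), a log2 difference of -0.97 (SE 0.35, 95% interval -1.75 to -0.20, adjusted p = 0.315, limma). Dusp9 averaged 16.9 ± 6.49 in siCtrl cells (SD, n = 3) and 39.3 ± 15.1 in untransfected cells (SD, n = 2), a log2 difference of -1.23 (SE 0.51, 95% interval -2.34 to -0.11, adjusted p = 0.389). Dusp6 differed by -0.70 (95% interval -1.75 to 0.35), with siCtrl signals between and below the 2 untransfected signals, which were 2.57-fold apart. The Dusp6 difference was -0.020 without untransfected array 1 and -1.38 without array 2, and that of Spry2 was -0.52 without array 1 and -1.43 without array 2. The differences were 0.58 for Dusp4 (95% interval -0.14 to 1.31), -0.86 for Spred1 (-2.27 to 0.55), -0.07 for Spry4 (-0.89 to 0.74) and -0.04 for Spred2 (-1.83 to 1.74). With 1 array left out, Dusp4 ran from 0.37 (without untransfected array 2) to 0.79, and Spred1 from -1.21 to -0.37 (without siCtrl array 2).

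For Dusp6 and Spry2 the group means were ordered siPea3, siErm, siCtrl and untransfected from low to high. Neighbours in that order overlapped between siErm and siCtrl for both genes, between siPea3 and siErm and between siCtrl and untransfected for Dusp6, and not otherwise. For Dusp9 the siErm and siCtrl means, 18.5 and 16.9, did not differ beyond their spread, the siPea3 mean was below both and the untransfected mean above both. For Dusp4 the siCtrl mean was the highest and the siPea3 mean the lowest.

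The other MAP kinase phosphatases were looked at beside these genes. Of 6 listed (Dusp1, Dusp2, Dusp7, Dusp8, Dusp10 and Dusp16), 5 were tested and 0 passed the test in any comparison, with 1 of 5 lower at an unadjusted p under 0.05 in siPea3 against siCtrl, where 10.6% of all probes were. In that comparison 1 of 5 was lower without overlap, against 12.4% of probes, and 2 of 5 were higher, against 2.84%, with a median log2 difference of -0.04, against -0.24 for all probes. Dusp7, the closest relative of Dusp6 and Dusp9 in sequence and substrate, had signals of 72.5, 79.5, 66.4 and 64.6 in siPea3 cells and 126, 175 and 125 in siCtrl cells. The siPea3 arrays were all lower than the siCtrl arrays, with a log2 difference of -0.99 (SE 0.30, adjusted p = 0.248). They were also below all siErm arrays, with a log2 difference of -0.88 (adjusted p = 0.402).

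Dusp8, a phosphatase that acts on JNK and p38, had signals of 80.6, 69.5, 114 and 91.1 in siPea3 cells and 54.9, 58.2 and 55.7 in siCtrl cells. All siPea3 arrays were higher, with a log2 difference of 0.63 (SE 0.32, adjusted p = 0.399). The siErm signals of Dusp8, 68.3, 76.8 and 59.8, also lay above all siCtrl arrays and overlapped those of siPea3. Its untransfected signals were 74.3 and 28.9. Dusp1, an inducible nuclear phosphatase, had signals of 300.1, 271, 279 and 219 in siPea3 cells and 219, 199 and 156 in siCtrl cells, a log2 difference of 0.49 (SE 0.28, adjusted p = 0.460), with the lowest siPea3 array (218.97) barely above the highest siCtrl array (218.84). Dusp10 and Dusp16, which act on JNK and p38, overlapped between siPea3 and siCtrl. Dusp10 averaged 41.3 ± 9.99 in siCtrl cells (SD, n = 3) and 21.1 ± 0.163 in untransfected cells (SD, n = 2), a log2 difference of 0.94 (SE 0.29, adjusted p = 0.207, limma).

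**Figure D3:**
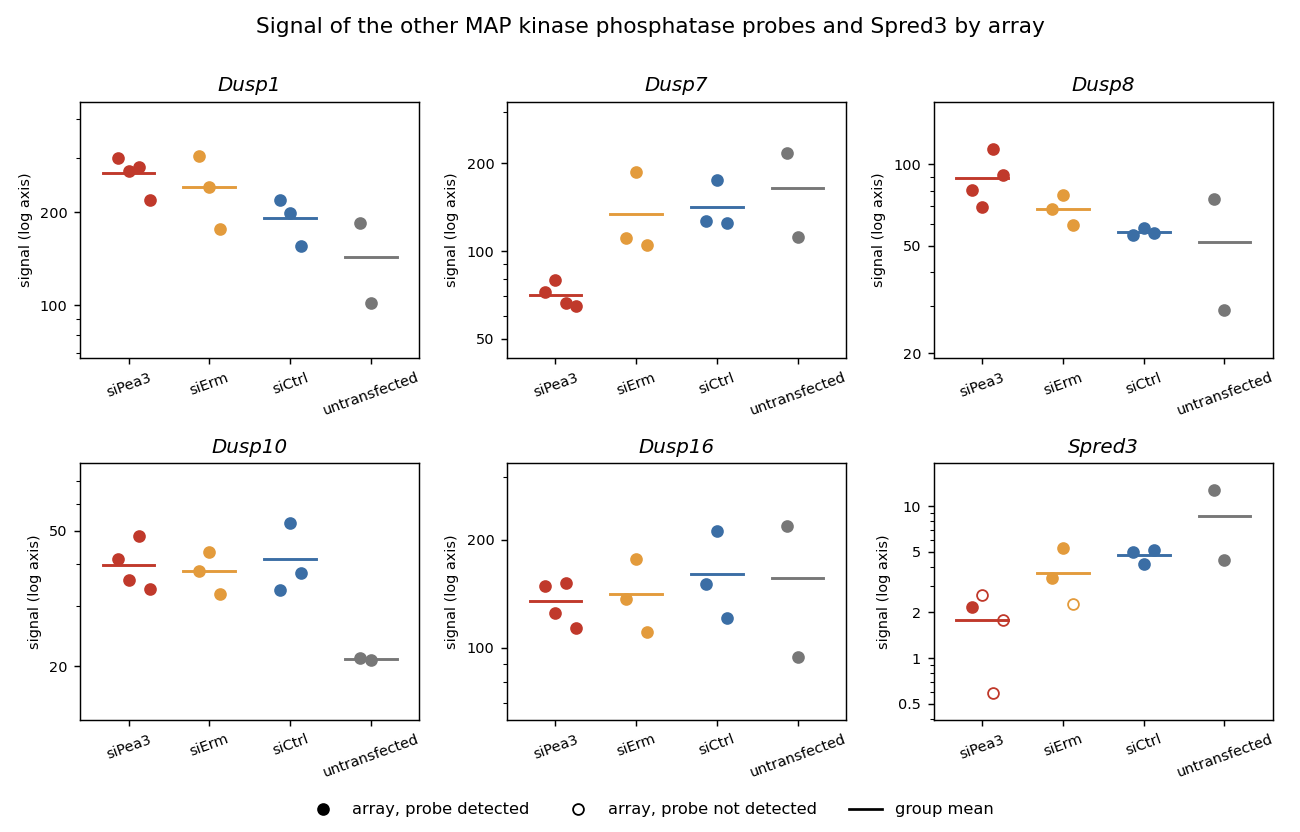
Signal (vertical log axis, assay normalized signal) of 5 other MAP kinase phosphatase probes and of Spred3 on each array of the 4 groups (horizontal axis); filled points are detected, open points not detected, and bars are group means. In siPea3 cells Dusp7 (64.6 to 79.5) lies below all other arrays, and Dusp8 (69.5 to 114) lies above all siCtrl arrays (54.9 to 58.2). The siErm arrays of Dusp8 (59.8 to 76.8) also lie above all siCtrl arrays.

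Of 15 other negative regulators of RAS and ERK, 11 were tested, 9 had estimates below 0 in siPea3 against siCtrl, against 69.4% of all probes, and 0 passed the test, with 4 lower at an unadjusted p under 0.05, against 10.6%. Lower without overlap were 6 of 11 (Spred3, Rasa1, Rasa2, Dab2ip, Errfi1 and Lrig1), against 12.4% of probes, and the median log2 difference was -0.60, against -0.24 for all probes. Spred3, the third Spred gene, had signals of 2.17, 2.62, 0.59 and 1.78 in siPea3 cells (detected on 1 of 4 arrays) and 5.01, 4.14 and 5.13 in siCtrl cells (3 of 3), a log2 difference of -1.60 (SE 0.53, adjusted p = 0.276). Rasa1, Rasa2 and Dab2ip encode GTPase activating proteins for RAS, and Errfi1 and Lrig1 encode inhibitors of EGF receptors.

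Upstream and downstream, no listed gene passed in siPea3 against siCtrl. Of 9 tested genes of the RAS to ERK cascade, 8 had estimates below 0, against 69.4% of all probes, and 1 was lower at an unadjusted p under 0.05, against 10.6%. Their median log2 difference was -0.54, against -0.24 for all probes. Lower without overlap were 2 of 9, against 12.4% of probes, and 0 were higher, against 2.84%. Of 19 tested genes that ERK is known to induce, 12 had estimates below 0, against 69.4% of all probes. The median of these was -0.16, near the -0.24 of all probes, and 1 was lower at an unadjusted p under 0.05, against 10.6%. That gene was Fosl1, a FOS family factor, whose siPea3 and siCtrl arrays overlapped. It averaged 92.1 ± 35.9 in siPea3 cells (SD, n = 4) and 166 ± 28.6 in siCtrl cells (SD, n = 3). The log2 difference was -0.92 with adjusted p = 0.322 in limma. Lower without overlap was 1 of the 19 genes (Myc), against 12.4% of probes, and 0 were higher, against 2.84%. Of 5 tested FGF ligands and receptors, 1 had an estimate below 0, against 69.4% of all probes, and the median was 0.33, against -0.24. None had an unadjusted p under 0.05, where 10.6% of probes were lower and 2.78% higher. None was lower or higher without overlap, where 12.4% and 2.84% of probes were.

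The estimates of Dusp9, Dusp6, Dusp4 and Spry2 in siPea3 against siCtrl stayed below 0 under all 17 alternative settings. They ranged over the settings from -2.81 to -1.53 for Dusp9, from -1.39 to -0.84 for Dusp6, from -1.15 to -0.64 for Dusp4 and from -0.99 to -0.55 for Spry2. With each array of either group left out in turn, these 4 genes stayed lower without overlap, and Spred1 joined them without siCtrl array 2 and Spred2 without siCtrl array 3, when 18.02% and 26.9% of all probes were lower.

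**Figure D4:**
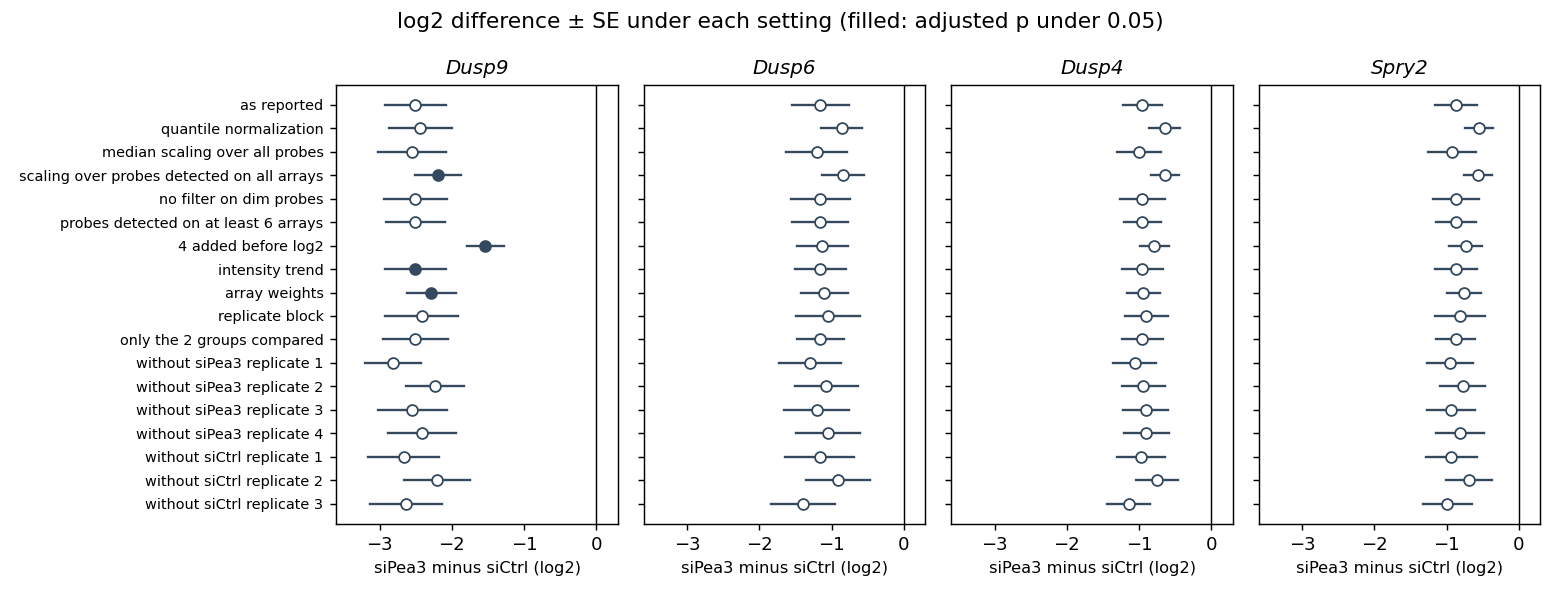
Fitted log2 difference of siPea3 minus siCtrl (horizontal axis, lines are ± SE) of 4 genes under the reported fit and 17 alternative settings (vertical axis); filled points have an adjusted p under 0.05. All estimates lie below 0, and the only filled points are 4 of Dusp9.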

How the data were processed

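The authors deposited 1 intensity per probe for each of 12 arrays, named assay normalized signal in the headers and linear by its values. A coefficient of variation, a ratio of noise to signal, was deposited with it, and its inverse served as signal to noise. How arrays were scaled to each other, and with what software, is not given in the sources used here. Signals were kept as deposited, the 145 to 438 measurements per array with a failed status were dropped, and log2 signals were fitted with limma 3.58.1 in R 4.3.3, with 1 coefficient per group and no block. Errors of log2 differences are standard errors from that fit. P-values measure the spread between cultures of 1 line, and the number of arrays limits the precision. The platform annotation gives 1 symbol for 14411 of 33012 probes, several for 247 and none for 18354. The fit was tested on simulated data. Python 3.11.15, pandas 2.3.3 and matplotlib 3.10.9 were used for tables and figures.

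All members with a probe are named, with Etv1, Etv4 and Etv5. Genes with the smallest p are named for the other phosphatases, the other negative regulators and the genes that ERK induces. No gene is named for the cascade, FGF and interferon lists. Other genes named as lower or higher without overlap between groups were chosen after their values were seen. Members and lists were chosen with earlier results of these data known. Alternatives were other scalings, filters, an added offset of 4, other variance models, the replicate number as a block, only the 2 groups compared, and each array left out. Counts of genes without overlap with an array left out were added after seeing the data.

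The titles number the samples without saying what a number shares. Deviations from group means correlated between same-numbered siPea3 and siCtrl arrays (r = 0.115, 0.321 and 0.164) and siErm and siCtrl arrays (0.275, 0.312 and 0.225, each over 16364 probes). Arrays of the same number were therefore also compared in pairs there. The reported fit had no block, so its errors and p-values do not use such pairs. Correlations were -0.0419, 0.0419 and 0.0800 for siPea3 and siErm, and 0.0833 and 0.0683 for siCtrl and untransfected cells. Arrays of unlike number reached 0.167 (siPea3 array 1 and siErm array 2), so what a number pairs is not settled.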

Additional observations from a re-analysis of the deposited data

How the results depend on the processing

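With the replicate number as a block, no member passed in any comparison, and Dusp9 in siPea3 against siCtrl differed by -2.42 (SE 0.51, adjusted p = 0.256). The block changed no call of a member. The count of members that passed in siPea3 against siCtrl was 1 in place of 0, Dusp9 each time, with scaling over probes detected on all arrays (-2.19, adjusted p = 0.0385), 4 added before log2 (-1.53, 0.0335), an intensity trend (-2.50, 0.0324) and array weights (-2.28, 0.0290). In siPea3 against siErm it was 1 with 4 added (-1.65, 0.0455) and array weights (-2.50, 0.0208). Leaving out 1 array left these counts at 0. Probes called numbered 0 to 87, 0 to 0, 0 to 69 and 0 to 336 over the alternatives in siPea3 against siCtrl, siErm against siCtrl, siPea3 against siErm and siCtrl against untransfected cells, beside 6, 0, 1 and 171, and 0, 0, 0 and 100 with the block. Interferon response genes called in siCtrl against untransfected cells numbered 3 with array weights and 0 with only the 2 groups compared, beside 5. Members lower without overlap numbered 4 to 5, 0 to 2, 2 to 5 and 2 to 4 with 1 array left out. In siPea3 against siCtrl the median of all probes was -0.24 as deposited, and other scalings put it at -0.05 (quantile), -0.29 (median) and 0.07 (probes detected on all arrays). Among members signs turned only for Spry4, Spred2, Dusp9 and Spred1, at reported estimates from -0.21 to 0.32, and the cause was not tested. The turned estimates, or the ranges that hold them, follow. For Spry4 they were 0.021 (quantile) and 0.11 (detected probes) in siPea3 against siCtrl, 0.11 and 0.11 in siPea3 against siErm (-0.51 to 0.047 with 1 array left out), -0.25 to 0.31 with 1 array left out in siErm against siCtrl, and 0.082 (quantile), 0.0035 (weights), 0.039 (block) and -0.41 to 0.27 (1 array left out) in siCtrl against untransfected cells. For Spred2 they were 0.028 (detected probes), 0.014 (4 added) and -0.69 to 0.74 (1 array left out) in siErm against siCtrl, and 0.065 (quantile), 0.00064 (median), 0.054 (4 added), 0.034 (weights), 0.58 (block) and -0.42 to 0.63 (1 array left out) in siCtrl against untransfected cells. In siErm against siCtrl, leaving out 1 array gave -0.064 to 0.45 for Dusp9 and -0.17 to 0.59 for Spred1. Dusp10 passed in siCtrl against untransfected cells under quantile normalization (1.04, adjusted p = 0.0464, 0.0464 to 0.552 over 15 alternatives). Spry1, Il17rd and Spred2, detected on 7 of 12 arrays, are limited by signal over background. So is Dusp9 on siPea3 array 2, where it was not detected.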

Other observations

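The 2 untransfected arrays lay apart at several of these probes. Array 1 and array 2 had signals of 614 and 239 for Dusp6, 78.0 and 41.5 for Spry2, 49.98 and 28.6 for Dusp9, 12.8 and 4.45 for Spred3, 217 and 112 for Dusp7, and 23.7 and 1.05 for Etv5, which was detected only on array 1.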
